A study of Mus musculus with 12 samples.

Results

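Murine pulmonary endothelial cells were compared after stimulation of NOD2 with MDP and in unstimulated control cells on TaqMan low-density arrays (TLDAs), cards of 384 wells that each hold 1 real-time PCR assay for a small RNA. The comparison takes 8 of the 12 arrays of the series, the control arrays numbered 4, 7, 10 and 13 in the labels and the MDP arrays 6, 9, 12 and 15. The 4 remaining arrays were from Tri-DAP stimulation of NOD1 and entered only the estimate of the spread and the second reference described below. Per the methods, the primary cells were isolated from lungs of male wild-type C57BL/6N mice aged 6 to 10 weeks, pooled from 3 mice per isolation and selected on CD144 and CD31 beads. They were starved in medium with less serum and lysed after 6 hours with or without MDP at 10 µg/mL. The study used 4 cell isolations, but the labels do not state which arrays share one, so that the tests compare the arrays without a block and p-values measure the spread between arrays only. Arrays with neighbouring label numbers (4 and 6, 7 and 9, 10 and 12, 13 and 15) gave like values for several miRNAs, and a fit with them as a block, added after the values were seen, is given where it changes a call. Each array carries 335 mouse and 40 rat miRNA assays, and the readout is the Ct, the PCR cycle at which fluorescence crosses a threshold. An earlier Ct stands for more RNA, 1 cycle for a factor of 2, and a Ct of 40 for a well whose fluorescence stayed below it (undetermined). All values are from monolayers, in which fewer cells of a type and less RNA per cell cannot be told apart.

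NOD2 is a cytosolic receptor that binds muramyl dipeptide (MDP), a fragment of the peptidoglycan of bacterial cell walls, and signals through the kinase RIPK2 to NF-κB and MAP kinases. MiRNAs are short RNAs cut from hairpin precursors, of which either arm (-5p or -3p) can become the mature strand. They lower the stability and translation of mRNAs that pair with their seed, the bases 2 to 8 from the 5′ end, so that miRNAs with 1 seed form a family with overlapping targets. Several miRNA genes, such as those of miR-146a, miR-155, miR-21 and miR-132, are known targets of NF-κB or other inflammatory signals in leukocytes and endothelial cells.

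The following mature mouse sequences are from RefSeq (build GRCm38.p6), in which 225 of the 335 mouse assays had a matching entry. The seed is in capitals. Shown first, for their known link to inflammatory signals, are miR-146a (mean Ct 23.99) and the rarer miR-146b (29.96) with a common seed and 2 differing bases, together with miR-155, miR-21 and the endothelial miR-126.
miR-146a-5p: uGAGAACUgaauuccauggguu
miR-146b-5p: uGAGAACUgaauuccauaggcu
miR-155-5p: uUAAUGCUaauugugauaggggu
miR-21a-5p: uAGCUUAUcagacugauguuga
miR-126a-3p: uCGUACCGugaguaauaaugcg
From the let-7 family, shown because all 9 members were measured on all 8 arrays, let-7b is given with its neighbours let-7a (2 bases differing from let-7b) and let-7e (3 bases).
let-7b-5p: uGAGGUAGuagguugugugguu
let-7a-5p: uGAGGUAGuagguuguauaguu
let-7e-5p: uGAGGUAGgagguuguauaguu
The miR-25 family is shown as the family whose tested members all had a mean above the control, and miR-15a beside miR-16 and miR-15b as the member of its family that lay apart.
miR-25-3p: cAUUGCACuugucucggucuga
miR-92a-3p: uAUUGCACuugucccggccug
miR-32-5p: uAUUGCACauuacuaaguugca
miR-367-3p: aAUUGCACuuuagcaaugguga
miR-15a-5p: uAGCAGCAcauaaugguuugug
miR-15b-5p: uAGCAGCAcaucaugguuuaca
miR-16-5p: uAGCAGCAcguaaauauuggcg
Of the miRNAs that led the comparison and have an entry, miR-543-3p (chr12:109717304-109717325, plus strand), miR-337-3p (chr12:109585850-109585871, plus strand) and miR-687 (chr14:73206808-73206829, minus strand) follow, with miR-203-3p, among the lowest of the miRNAs measured on all 8 arrays, and miR-200a-3p, which the study names.
miR-543-3p: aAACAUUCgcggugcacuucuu
miR-337-3p: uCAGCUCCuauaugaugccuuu
miR-687: cUAUCCUGgaaugcagcaauga
miR-200a-3p: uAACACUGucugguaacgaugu
miR-203-3p: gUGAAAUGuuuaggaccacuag

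Between 232 and 254 of the 375 miRNA assays reached the threshold per array, 242 ± 9.32 (SD, n = 4) on the control arrays and 245 ± 7.80 (SD, n = 4) after MDP (p = 0.74 in a two-sided exact permutation test over arrays, which cannot go below 0.029 with 4 against 4). Values relative to U6, a small nuclear RNA read in 4 wells per array, are Ct minus the mean Ct of those wells with the sign turned. The 4 U6 wells of an array did not give 1 level. On MDP array 12 one U6 well had a Ct of 15.7 and the other wells of that array 19.31 to 19.98, and on MDP array 9 one had 17.5 and the others 20.7 to 21.1. On control array 4 one U6 well had 18.0 and the others 20.2 to 20.7. The means of the 4 wells nevertheless differed by only 0.02 cycles between MDP and control, whereas their medians differed by 0.26 (p = 0.97 and p = 0.46, two-sided exact permutation tests). A second reference was therefore set beside U6, a mean Ct over the 174 miRNAs that no array of the 12 missed, which was 28.7 ± 0.33 (SD, n = 4) on the control arrays and 28.7 ± 0.43 (SD, n = 4) after MDP. For a miRNA measured on all 8 arrays, this reference shifts the log2 fold change by 0.03 and the median of the U6 wells shifts it by 0.25, so that a change smaller than these shifts has no settled sign. Of the other small RNAs on the array, snoRNA135 came later after MDP, with a Ct of 25.3 ± 0.98 without and 25.8 ± 0.63 with MDP (SD, n = 4 each), a difference of 0.53 cycles that was within the spread between arrays (p = 0.43, two-sided exact permutation test). The Ct of Y1 was 28.1 ± 0.47 without and 28.1 ± 0.37 with MDP (SD, n = 4 each). The Ct of snoRNA202 was 21.0 ± 0.40 without and 21.0 ± 0.45 with MDP, and that of U87 was 27.6 ± 0.40 and 27.6 ± 0.16 (SD, n = 4 each).

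**Figure D1:**
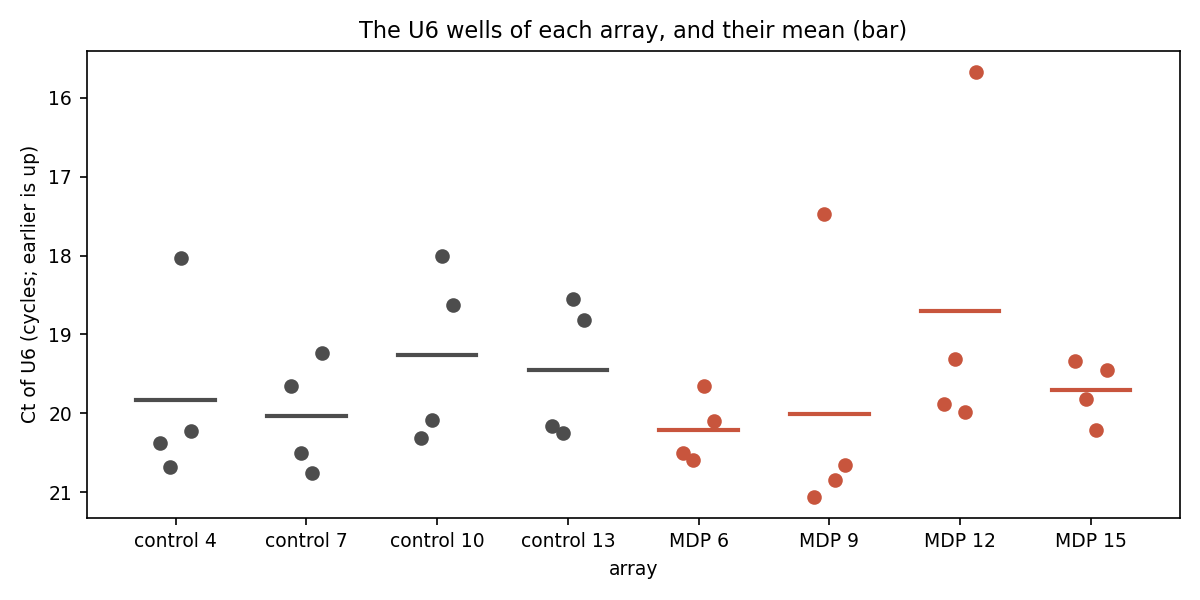
Ct of U6 in each of the 4 wells (points) of the control arrays (grey) and MDP arrays (red), with the mean of the 4 wells (bar). The y axis is in cycles with earlier Ct at the top. Single wells on MDP arrays 9 and 12 (Ct 17.5 and 15.7) lie apart from the others of the same array.

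Over all miRNAs, no common shift relative to U6 was detectable after MDP with 4 arrays per group. Of the 244 miRNAs with at least 2 measured values in both groups, 112 had a mean above and 132 a mean below the control relative to U6, with a median log2 fold change of -0.02. Relative to the 174 miRNAs, 126 were above and 118 below, with a median of 0.01. The 174 are among the 244, so that this reference takes out a shift common to them and cannot show one. With Ct values that were not normalized, the median was -0.04. In one limma fit, 3 of 244 miRNAs passed an unadjusted p under 0.05 relative to U6, or 1.23%, with 2 higher (0.82%) and 1 lower (0.41%) after MDP, and 5 passed relative to the 174 miRNAs (2.05%). The smallest Benjamini-Hochberg adjusted p from limma was 0.9997 with U6 and 0.998 with the second reference, so that none passed after adjustment. The count relative to U6 was 5 without control array 13 or without MDP array 9, and 1 without MDP array 15. With neighbouring label numbers as a block, 6 of 244 were called relative to U6 (2.46%, smallest adjusted p from limma 0.9987) and 12 relative to the 174 miRNAs (4.92%, smallest adjusted p 0.94). Of the 181 miRNAs measured on all 8 arrays, none had MDP values entirely above or below the control values, or 0%, with either reference. An unadjusted limma p above 0.5 was found for 154 (85.1%) relative to U6 and for 136 (75.1%) relative to the 174 miRNAs. Unchanged miRNAs with a well-estimated spread would on average give fewer such p-values, so that these shares are not evidence of no change. The cause was not tested.

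The size of the changes followed the abundance of the miRNA. The 25 tested miRNAs with a mean Ct under 25 had log2 fold changes between -0.20 and 0.09 relative to the 174 miRNAs, with an SD across miRNAs of 0.08. The SD was 0.46 over the 92 miRNAs from Ct 25 to under 30, 0.97 over the 79 from Ct 30 to under 33 and 1.34 over the 48 at Ct 33 or later. More than 2-fold from the control relative to U6 were 25 miRNAs above and 15 below, of which 13 and 6 had a mean Ct of 33 or later and none had a mean Ct under 25. Of these 40, 11 were measured on all 8 arrays. The choice of reference set how closely a change could be bounded. Relative to the 174 miRNAs, the 95% limma interval lay within 2-fold of the control in both directions for 52 of the 244 miRNAs, among them 14 of the 25 with a Ct under 25, whereas relative to U6 it did so for none. The median of the SD within groups over the 181 miRNAs was 0.85 relative to U6 and 0.68 relative to the 174 miRNAs, and it was smaller with the second reference for 146 of them. The 174 are among these 181, and their mean takes out array shifts that they share. The smaller SD and the narrower intervals are therefore in part built into this reference.

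**Figure D2:**
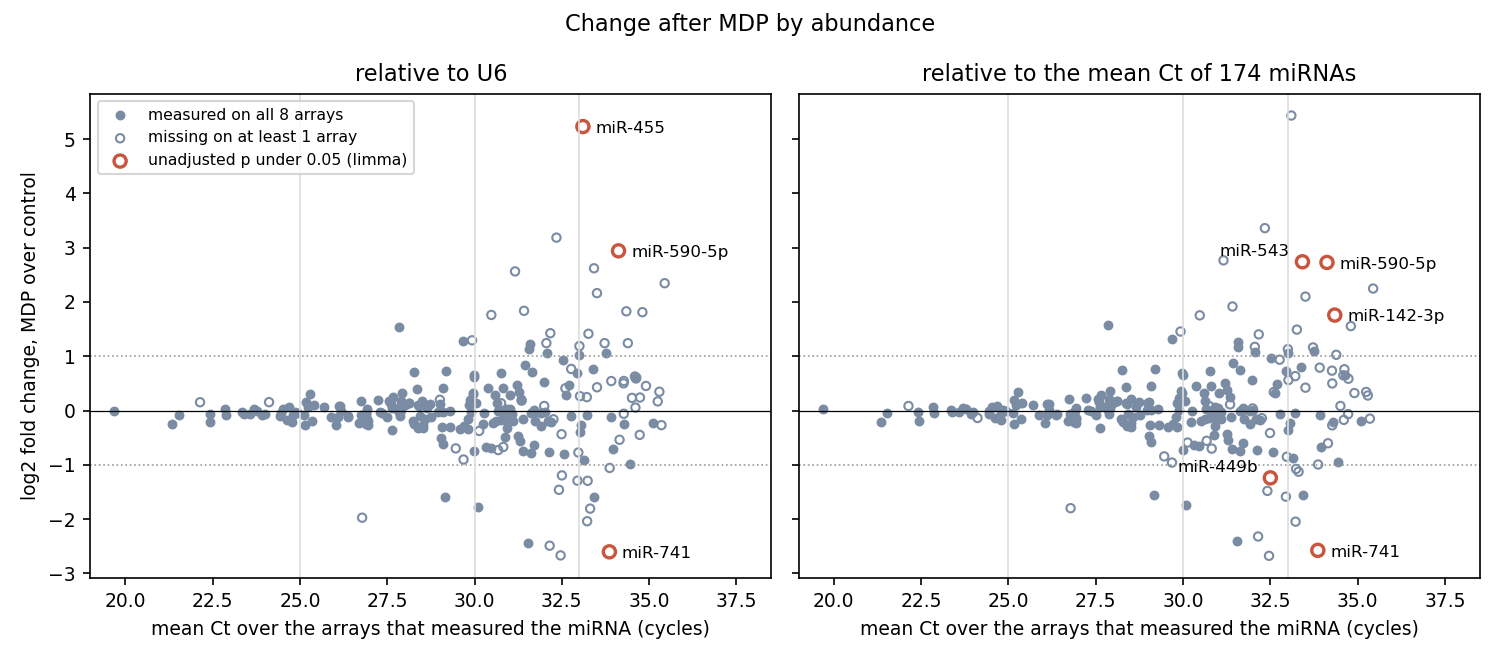
Log2 fold change of MDP over control against the mean Ct of each of the 244 tested miRNAs, relative to U6 (left) and to the mean Ct of 174 miRNAs (right). Filled points were measured on all 8 arrays, open points were missing on at least 1, red rings passed an unadjusted limma p under 0.05, dotted lines mark 2-fold and vertical lines the abundance classes. The points fan out from left to right, and all ringed miRNAs have a mean Ct of 32.5 or later.

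The miRNAs past the unadjusted threshold without a block were all rare, with a mean Ct between 32.5 and 34.3, and each was undetermined on at least 1 of the 8 arrays. The call of miR-455, a miRNA of cartilage and adipose tissue, rested on 2 MDP arrays. It had a Ct of 38.6, 33.6 and 33.9 on control arrays 4, 10 and 13, of 26.9 and 32.7 on MDP arrays 12 and 15, and was undetermined on control array 7 and MDP arrays 6 and 9. The log2 fold change relative to U6 was 5.23 (standard error 1.88, limma, unadjusted p = 0.028, adjusted p = 0.9997), without control array 4 it was 3.76 and not called, and relative to the 174 miRNAs it was 5.43 and not called. With the block it was 3.76 and called relative to U6, and 3.89 and not called relative to the 174 miRNAs.

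For miR-590-5p, the Ct was 33.8, 35.3, 34.4 and 35.01 on control arrays 4, 7, 10 and 13, and 30.2, 35.2 and 30.8 on MDP arrays 6, 9 and 15, with MDP array 12 undetermined. MDP arrays 6 and 15 were above all control arrays and MDP array 9 among them. The log2 fold change was 2.94 relative to U6 (standard error 1.20, limma, adjusted p = 0.9997) and 2.73 relative to the 174 miRNAs, called with both references. It was lost without control array 7, 10 or 13 or without MDP array 6 or 15 (1.89 to 2.88), and with undetermined wells at Ct 40 (0.64). With the block it was called with both references (2.68 and 2.62).

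MiR-741, a miRNA of the X chromosome known from testis, was lower after MDP with both references. It had a Ct of 32.2 and 33.4 on control arrays 4 and 7 and of 34.5, 35.1 and 35.4 on MDP arrays 6, 12 and 15, and was undetermined on the other 3 arrays. The measured values did not overlap (two-sided exact permutation, p = 0.2 relative to U6 and, relative to the 174 miRNAs, p = 0.1, which 2 arrays against 3 cannot go below). Its log2 fold change was -2.60 relative to U6 (standard error 0.94, limma, adjusted p = 0.9997) and -2.57 relative to the 174 miRNAs. The call was lost without MDP array 12 (-2.13) or 15 (-2.49) and with the block (-1.91 relative to U6 and -2.38 relative to the 174 miRNAs), and the sign turned to 0.16 with undetermined wells at Ct 40.

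Relative to the 174 miRNAs only, 3 further miRNAs were called. MiR-142-3p, which is made by blood cells, had a Ct of 35.2, 34.97 and 36.6 on control arrays 4, 10 and 13 and of 34.5, 34.4 and 32.5 on MDP arrays 6, 12 and 15, undetermined on the others, with a log2 fold change of 1.76 (and 1.83 relative to U6, not called). MiR-543, of the large imprinted cluster on chromosome 12, was measured at Ct 34.02 and 34.99 on control arrays 7 and 13 and at 32.9 and 31.1 on MDP arrays 9 and 15, with a log2 fold change of 2.74. These miRNAs were higher on each measured MDP array than on each measured control array relative to the 174 miRNAs. MiR-449b, of a family known from ciliated airway epithelium, was lower, with a Ct of 31.6, 32.5 and 31.4 on control arrays 4, 7 and 10 and 33.6, 33.3, 32.2 and 32.9 on MDP arrays 6, 9, 12 and 15, and a log2 fold change of -1.24. Relative to U6, miR-449b stood alone (1 of 222, or 0.45%) among the miRNAs with at least 3 measured values per group in showing no overlap, with a log2 fold change of -1.19 (p = 0.029 in an exact permutation test with both sides counted, the lowest possible with 3 arrays against 4). Relative to the 174 miRNAs, p was 0.057 for miR-449b in the same permutation test. Undetermined on control array 13, miR-449b came to 0.92 relative to U6 with that well at Ct 40. With the block, miR-543 was called relative to U6 (2.62) but not to the 174 miRNAs, and miR-142-3p and miR-449b with neither reference. The relatives of miR-449b by seed, miR-449a and miR-34a and miR-34c, were measured on all 8 arrays and lay between -0.35 and 0.46 relative to the 174 miRNAs.

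**Figure D3:**
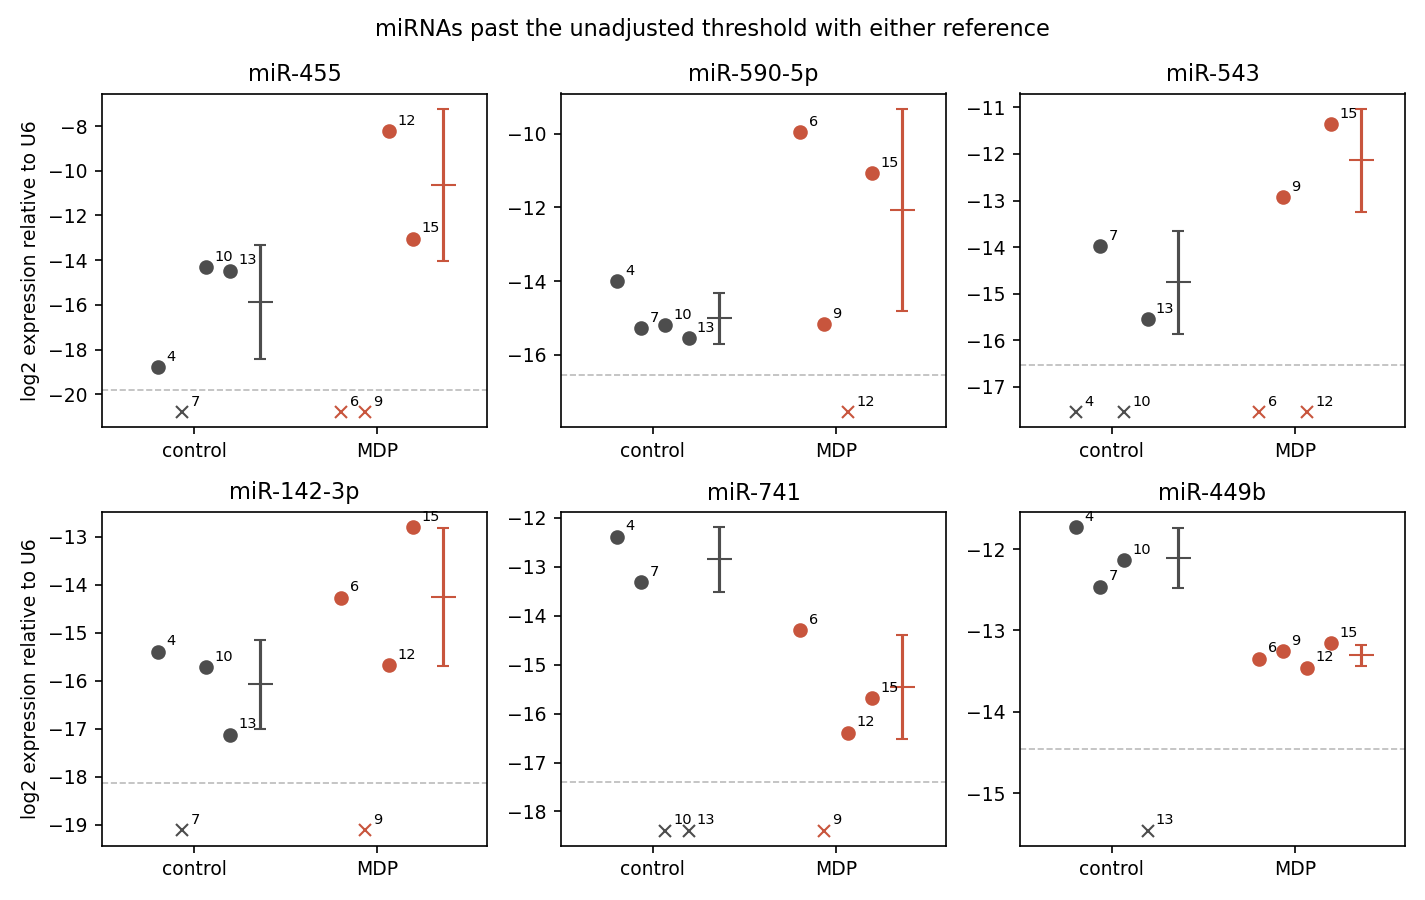
Log2 expression relative to U6 of the 6 miRNAs past the unadjusted limma threshold with U6 or with the second reference, on each control array (grey) and MDP array (red), numbered as in the labels, with mean and SD beside the points. Crosses below the dashed line are undetermined wells, which have no value. Each of the 6 has at least 1 such well.

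Among the miRNAs measured on all 8 arrays, the ones with the smallest p in each direction did not pass the threshold with either reference without a block. MiR-687 had a Ct of 31.2, 27.7, 25.5 and 28.7 in control cells and of 27.4, 27.0, 26.2 and 26.4 after MDP (arrays in label order). The MDP arrays lay close together and within the control range, and the log2 fold change was 1.54 (standard error 1.20, limma, unadjusted p = 0.22), or 0.63 without control array 4. The rat assay of miR-343 had a Ct of 33.3, 33.8, 34.7 and 33.7 in control cells and 32.99, 34.2, 31.5 and 32.7 after MDP, a log2 difference of 1.06 (standard error 0.64) with p = 0.086 in the exact permutation test, or 0.64 without control array 10. The other 6 highest, miR-362-3p, miR-685, miR-339-5p, miR-501-3p, miR-9 and the rat assay of miR-381, had log2 fold changes of 0.76, 1.28, 0.93, 1.23, 1.14 and 1.02. MiR-9, known from neurons, was at Ct 34.96 on control array 10 and at 30.03 to 32.5 on the others, and without that array its log2 fold change was 0.13. On the lower side, miR-337-3p had a Ct of 33.2, 31.5, 33.3 and 32.2 in control cells and 35.5, 33.4, 35.3 and 32.4 after MDP. Its log2 fold change was -1.58 (standard error 0.86, limma, unadjusted p = 0.089), and without MDP array 15 it was -2.18 and past the unadjusted threshold, whereas without MDP array 12 it was -0.87. MiR-124, a neuronal miRNA, lay at -1.77 with control array 10 at Ct 25.9 and the other control arrays at 28.9 to 30.1, and at -1.02 without that array. MiR-15a lay at -1.59, with MDP array 9 at Ct 34.5 and the other 3 MDP arrays at 27.2 to 30.2. Control array 7 was the latest of the control arrays, at Ct 31.4. Without MDP array 9 alone, the log2 fold change of miR-15a was -0.29. The other 5 lowest were miR-203 (-0.91), the rat assay of miR-196c (-0.98), miR-495 (-0.75), miR-467b (-0.75) and miR-339-3p (-0.61). With the block, miR-337-3p was called with both references, and miR-362-3p (0.80), miR-9 (1.17), miR-15a (-1.55), miR-495 (-0.72) and miR-467b (-0.72) were called relative to the 174 miRNAs.

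The miRNAs that the text of the study names after NOD stimulation were followed on each array (miR-147, miR-298 and miR-200a), with miR-203 and miR-23a beside them. MiR-147 (miR-147-3p), which is induced in macrophages by Toll-like receptors, had a Ct of 32.2, 33.5 and 31.1 on control arrays 4, 7 and 13 and of 33.4 and 33.9 on MDP arrays 9 and 12, and was undetermined on the other 3 arrays. Its log2 fold change was -1.81 relative to U6 and -1.13 relative to the 174 miRNAs, not called with either. MiR-200a, of epithelial cells, had a Ct of 34.6, 31.0 and 28.9 on control arrays 7, 10 and 13, undetermined on control array 4, and of 30.5, 30.1, 29.7 and 29.0 on the MDP arrays. The Ct values after MDP lay inside the range of the control Ct values. Relative to U6 the groups overlapped, with MDP array 15 slightly above all measured control arrays. The log2 fold change relative to U6 was 1.76 (limma, unadjusted p = 0.11). Single arrays moved this value. Without control array 13 it was 2.97 and past the unadjusted threshold, without control array 7 it was 0.44, and with the undetermined well at Ct 40 it was 3.82 and not called. Its neighbours on the same stretch of chromosome 4 had other values, miR-200b a log2 fold change of -0.96 and miR-429 of 0.06 relative to the 174 miRNAs. MiR-298 lay at -0.16 relative to U6 with values between Ct 29.9 and 33.8 in control cells and between 30.5 and 32.4 after MDP. MiR-203, of skin and other epithelia, had a Ct between 31.9 and 34.6 in control cells and between 32.1 and 34.8 after MDP. MiR-23a was measured on all control arrays (Ct 28.2, 29.6, 25.01 and 29.8) and at 29.2 and 29.5 on MDP arrays 6 and 9, and its remaining MDP wells were undetermined. Its log2 fold change was -0.70 relative to U6 over the measured wells and not called, and -6.49 and called with the undetermined wells at Ct 40. MiR-27a, from the same hairpin cluster, was measured on all 8 arrays and lay at 0.11 relative to the 174 miRNAs.

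No miRNA of the list known from NF-κB signalling and inflammation was called with U6 or with the second reference. Among all 244, 3 were called with U6 (1.23%) and 5 with the second reference (2.05%). With so few calls over all miRNAs, 0 calls in a list, family or cluster this small say nothing about its members. Of 14 assays of this list, all were tested, and the interval lay within 2-fold for 4 of them relative to the 174 miRNAs. The median log2 fold change relative to the 174 miRNAs was 0.00, beside 0.01 over all 244. With the block, 1 of the 14 was called relative to the 174 miRNAs (miR-9), beside 12 of all 244 (4.92%). MiR-146a, which targets adaptors of Toll-like receptor signalling, had a Ct of 24.0, 24.3, 23.4 and 24.1 in control cells and 23.8, 24.7, 23.1 and 24.3 after MDP. Its log2 fold change was -0.03, with a 95% limma interval from -0.95 to 0.89. MiR-155 had a Ct of 25.9, 25.3, 25.4 and 25.2 in control cells and of 25.4, 25.9, 24.8 and 25.2 after MDP, a log2 fold change of 0.14 (interval -0.49 to 0.78). The groups overlapped for both. MiR-21 lay at 0.06 (-0.66 to 0.77) and miR-146b at 0.33 (-0.66 to 1.32). MiR-132, which responds to CREB, lay at 0.29, with an interval from -1.62 to 2.20, since control array 13 and MDP array 15 were at Ct 25.4 and 25.3 and the other arrays at 27.9 to 29.0. In this list, 1 miRNA was more than 2-fold above the control relative to the 174 miRNAs (miR-9, 1.17) and 2 were more than 2-fold below (miR-187, -2.68, and miR-147, -1.13), beside 25 above and 14 below among all 244. MiR-187 was measured on 3 control arrays at Ct 29.2 to 32.6 and on all MDP arrays at 31.1 to 35.3. Of 8 assays for miRNAs linked to NOD receptors in other cell types, 7 were tested, among them both arms of miR-125a. Relative to the 174 miRNAs, 6 had a mean below the control with a median of -0.16, beside 118 of all 244 below and a median of 0.01. This median is smaller than the shift of 0.25 from the choice of U6 summary, so that no direction is settled. Without a block 0 were called, beside 2.05% of all 244, and miR-495 was called with the block relative to the 174 miRNAs. Intervals within 2-fold in both directions were obtained for 4 of the 7, among them miR-10a (-0.05, interval -0.71 to 0.60) and miR-192 (-0.19, interval -0.94 to 0.56).

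**Figure D4:**
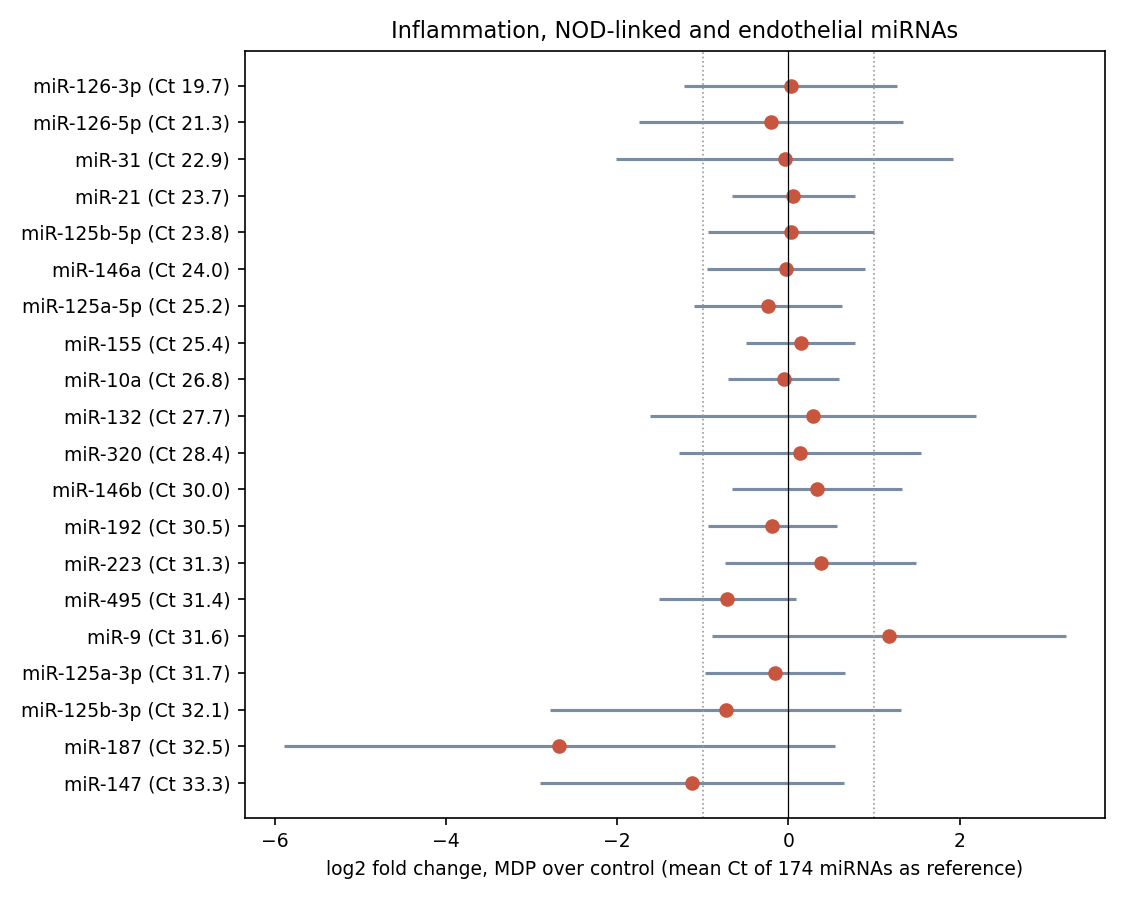
Log2 fold change of MDP over control relative to the mean Ct of 174 miRNAs (points) with the 95% limma interval (lines) for the 20 tested miRNAs of the inflammation, NOD-linked and endothelial lists, ordered by mean Ct given in parentheses. Dotted lines mark 2-fold. The intervals all cross 0, and those of miR-155, miR-21, miR-146a and miR-10a lie within 2-fold.

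The endothelial identity of the samples was read from miR-126, which is encoded in the endothelial gene Egfl7. Its 3p arm had the earliest mean Ct of all tested miRNAs, 19.7, and its 5p arm the next, 21.3. MiR-126-3p had a Ct of 19.8, 19.4, 19.3 and 20.3 in control cells and 19.4, 19.8, 19.1 and 20.6 after MDP, a log2 fold change of 0.03 relative to the 174 miRNAs. Of 22 assays for miRNAs of angiogenesis and the vessel wall, 21 were tested. Of these, 11 had a mean above and 10 below the control, and the median was 0.01. With the second reference 0 of them were called, beside 5 of all 244 (2.05%), and with U6 also 0. MiR-221 and miR-222, which restrain KIT signalling in endothelial cells, lay at 0.01 and -0.03, and miR-17 of the miR-17-92 cluster at -0.06. The hypoxia-responsive miR-210 lay at -0.13. The largest value of the list was 1.17 for miR-296-3p, measured on 3 arrays of each group and called with the block relative to the 174 miRNAs only.

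Families with a common seed were described by the changes of their members, without a test of the family. None of the 12 families with at least 3 tested members that had a sequence entry held a called miRNA with the second reference. MiR-449b, which was called and belongs to the family of miR-449a and miR-34a, had no entry and is not counted among them. With the block, miR-15a was called relative to the 174 miRNAs only. In the let-7 family, with the seed GAGGUAG, all 9 members were measured on all 8 arrays, 6 had a mean above and 3 below the control, and the median was 0.18 relative to the 174 miRNAs. The mean level of the family ran from 1.83 to 2.60 log2 units on the control arrays and from 2.10 to 2.53 after MDP. Let-7a had the highest value, 0.75, with a Ct of 28.2, 27.4, 29.5 and 29.2 in control cells and of 27.7, 27.9, 28.6 and 27.4 after MDP, and let-7b lay at 0.20. The miR-17 family (miR-17, miR-20a, miR-20b, miR-93, miR-106a and miR-106b) had a median of -0.02, with 3 above and 3 below. The miR-30 family of 6 lay between -0.30 and 0.12, and the miR-29 family of 3 between -0.02 and 0.15. In the miR-25 family, all 4 tested members were above the control with a median of 0.50, and none was called. Its abundant member miR-92a had a log2 fold change of 0.12 and a Ct from 25.3 to 27.4, while miR-367 (1.09), which marks embryonic stem cells, had a Ct from 27.7 to 36.7 over the 4 MDP arrays. In the miR-15/16 family, 5 of 6 members lay between -0.16 and 0.43 and miR-15a at -1.55. Relative to the 174 miRNAs, miR-15a was lower on each MDP array than on the control array with the neighbouring number. Its values were -0.51 and -1.55 on arrays 4 and 6, and -2.36 and -5.13 on arrays 7 and 9. On arrays 10 and 12 they were 2.66 and 1.29, and on arrays 13 and 15 they were 0.43 and -0.61.

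Genomic clusters, here miRNA genes within 10 kb of the next one in RefSeq, were described in the same way. The imprinted Dlk1-Dio3 region of chromosome 12 holds 2 such clusters. In the proximal one, which includes miR-127, miR-337, miR-431, miR-433 and miR-434, 6 of 7 tested assays had a mean below the control, with a median of -0.64 and 0 called, and miR-337-3p called with the block. Over the 5 of them measured on all 8 arrays, the mean level was -0.56, -2.47, -0.80 and -2.32 log2 units on control arrays 4, 7, 10 and 13 and -1.05, -2.69, -4.39 and -1.92 on MDP arrays 6, 9, 12 and 15. MDP array 12 was the lowest of all, and MDP arrays 6 and 15 lay within the range of the control arrays. MiR-337-5p, 1 of the 5, had a Ct of 22.4 and 21.9 on control arrays 4 and 10 and of 21.5 on MDP array 6, and of 33.4 to 35.5 on the other 5 arrays. In the distal cluster, which includes miR-376a, miR-379, miR-410, miR-495 and miR-543, 12 of 19 tested assays were above the control with a median of 0.08, and miR-543 was the single call with the second reference. With the block and the second reference, miR-369-5p (0.88) and miR-495 were called there instead. Without the block, miR-369-5p lay at -0.07 with the same reference, so that its sign turned with the block. MiR-369-5p was measured on 3 arrays of each group. On the X chromosome, 4 of 5 tested assays of the cluster with miR-322, miR-503, miR-351 and miR-542 were below the control, with a median of -0.65 and no call. Its mean level over 4 assays was -3.23, -3.94, -1.65 and -1.37 on control arrays 4, 7, 10 and 13 and -4.61, -3.79, -2.07 and -1.89 on MDP arrays 6, 9, 12 and 15. Of the X-linked cluster with miR-362, miR-501 and miR-532, 5 of 6 were above the control with a median of 0.11, and miR-362-3p was called with the block. The miR-17 cluster of chromosome 14 and the miR-23b cluster of chromosome 13 had medians of -0.12 and -0.05. In the cluster of let-7e, miR-99b and miR-125a on chromosome 17, all 4 assays were below the control with a median of -0.15 and no call.

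Both arms of a hairpin, and mouse and rat assays of 1 miRNA, gave a second reading of the same gene. Of 18 hairpins with both arms tested, 7 had both arms on the same side of the control relative to the 174 miRNAs, and the arms differed by a median of 0.81 log2 units. In the 4 hairpins whose arms both had a mean Ct under 30, the median difference was 0.21, and in the other 14 it was 0.88. The arms of miR-532 lay at 0.01 and 0.07, those of miR-335 at -0.31 and -0.12, and those of miR-339 at -0.57 (3p) and 0.96 (5p). Of the 7 miRNAs with a mouse and a rat assay tested, 2 had both on the same side. MiR-224 lay at -0.14 by the mouse assay and 0.01 by the rat assay, whereas miR-339-3p lay at -0.57 and 0.87 and miR-450a at -2.05 and 1.49. The last was missing on at least 1 array in both assays.

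The mural and fibroblast miRNAs measured on all 8 arrays differed between arrays far more than between groups. MiR-145, of smooth muscle and pericytes, had a Ct of 29.9, 33.1, 27.3 and 23.1 on control arrays 4, 7, 10 and 13 and of 30.3, 32.5, 28.0 and 23.5 on MDP arrays 6, 9, 12 and 15. The values spread over 9.17 log2 units relative to the 174 miRNAs, in both groups alike, and the log2 fold change was -0.21 (interval -5.13 to 4.71). MiR-143, transcribed with miR-145, had a Ct of 29.1, 30.2, 27.4 and 24.8 in control cells and of 29.2, 30.4, 27.4 and 25.02 after MDP. For miR-214 the range was 5.87 and for miR-199a-3p 4.09 log2 units, with log2 fold changes of 0.06 and -0.21. Control array 13 and MDP array 15 were highest and control array 7 and MDP array 9 lowest for miR-143, miR-145 and miR-199a-3p. All 5 mural and fibroblast assays were tested, 0 were called, and the mean level of the 4 measured on all 8 arrays ran from -1.49 to 4.30 on the control arrays and from -1.07 to 4.17 after MDP. The same control array 13 and MDP array 15 were the lowest for miR-31 (Ct 24.4 and 24.7, other arrays 21.9 to 22.8) and miR-126-3p. Taking these differences into the fit as a block of neighbouring label numbers ended the call of miR-741 with both references. It gave a call with both references to miR-337-3p and to miR-467d (1.71 relative to U6 and 1.45 relative to the 174 miRNAs). Also called with the block were miR-547 (3.57) relative to U6, and miR-370 and miR-204 (0.74) relative to the 174 miRNAs. MiR-370, measured on 2 arrays of each group, lay at -2.20 with the block and at -0.99 without it. Of the 58 miRNAs with a within-group SD above 1 log2 unit among the 181, 48 had a group difference of less than 1. Over all 181, only 7 lay more than 2-fold above and 4 more than 2-fold below the control relative to the 174 miRNAs. Differences of less than 1 were therefore not more frequent among the 58.

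**Figure D5:**
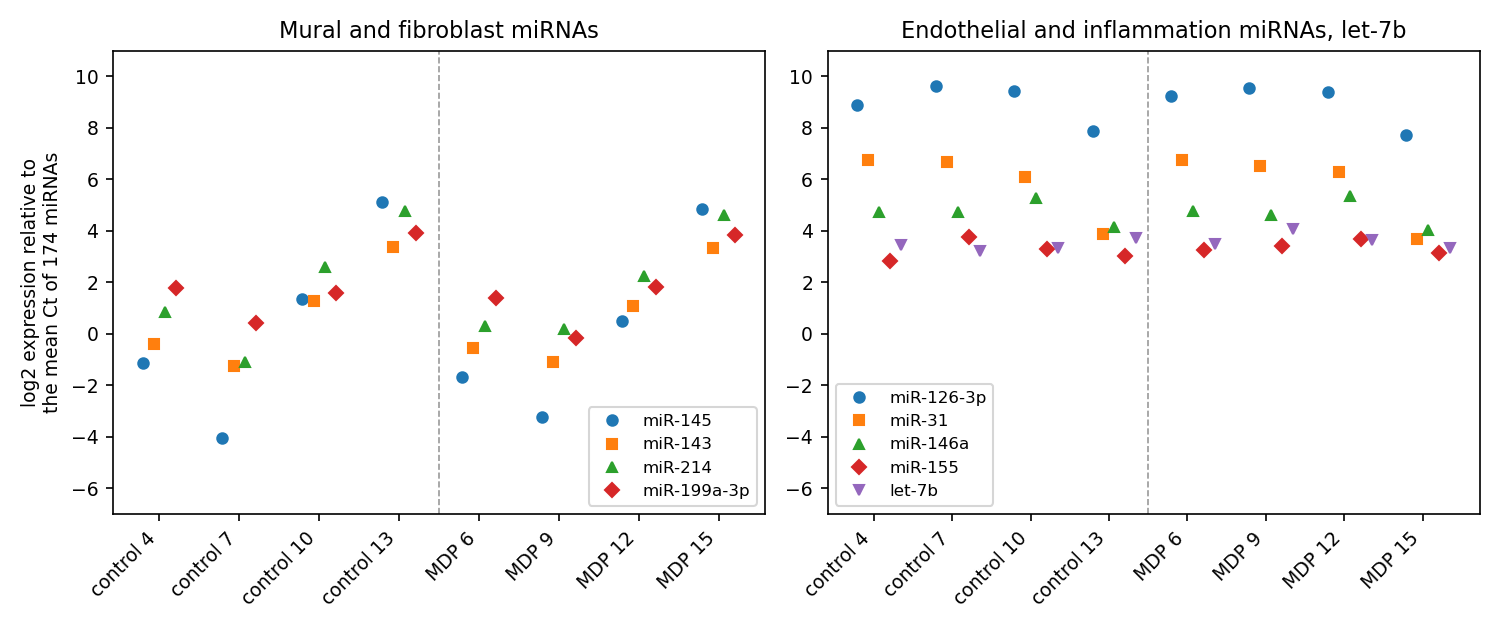
Log2 expression relative to the mean Ct of 174 miRNAs on each control array (left of the dashed line) and MDP array (right of it) for 4 mural and fibroblast miRNAs (left) and for miR-126-3p, miR-31, miR-146a, miR-155 and let-7b (right). MiR-145 runs from Ct 33.1 on control array 7 to 23.1 on control array 13 and over a like range after MDP, while miR-155 lies between 2.84 and 3.76 on all 8 arrays.

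Epithelial miRNAs showed the same kind of spread. Of 7 assays 5 were tested, with 3 above and 2 below the control and 0 called with U6 or the second reference. MiR-429 had a Ct of 30.9, 35.01, 30.5 and 28.3 in control cells and 33.2, 33.1, 30.001 and 28.3 after MDP. MiR-200c had a Ct from 28.3 to 34.2 on the control arrays and from 28.4 to 33.6 on 3 MDP arrays. Leukocyte miRNAs were present at a low level, with 3 of 4 assays tested. Of these, miR-142-3p was called relative to the 174 miRNAs (1.76), as given above, beside 5 of all 244 (2.05%). MiR-223, of granulocytes and macrophages, had a Ct of 31.8, 31.3, 31.95 and 30.2 in control cells and 31.7, 32.0, 29.9 and 30.4 after MDP, with a log2 fold change of 0.38, and miR-150, of lymphocytes, lay at -0.31. MiR-142-5p was undetermined on all control arrays and had a Ct of 35.5 and 34.8 on MDP arrays 6 and 12. Of the erythroid miRNAs, miR-451 was measured on 1 array of each group and miR-486 on control arrays 10 and 13 only. The hepatocyte miR-122 was undetermined on all 8 arrays. Muscle-specific miRNAs were mostly undetermined, with 2 of 7 assays tested, both reading miR-1. The mouse assay of miR-1 had a Ct of 28.9, 32.1 and 33.9 on control arrays 4, 7 and 13 and of 27.7, 29.6 and 31.4 on MDP arrays 6, 12 and 15, a log2 fold change of 1.92 relative to the 174 miRNAs, while the rat assay, measured on all 8 arrays, gave 0.50.

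In detection, no assay was measured on 3 or 4 more arrays of one group than of the other. Of the 375 assays, 181 were measured on all 8 arrays and 69 on none, 48 were measured on more MDP than control arrays and 39 on more control than MDP arrays. The difference was 2 arrays for 15 assays, 8 towards MDP and 7 towards control. MiR-142-5p, miR-129-5p and the rat assay of miR-505 were measured on 0 control and 2 MDP arrays, with a mean Ct of 35.1, 34.2 and 35.5. MiR-294, miR-329, miR-486 and miR-598 were measured on 2 control and 0 MDP arrays, with a mean Ct from 32.96 to 35.1. MiR-23a and miR-434-5p went from 4 control to 2 MDP arrays, with a mean Ct of 29.5 and 32.4. MiR-465a-5p, at 26.8, was measured on 2 control and 4 MDP arrays. These miRNAs are named after their values were seen.

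A few wells were early beyond the range of their assay. Defined as more than 10 cycles before the median of the other measured wells or as a Ct under 15, and chosen after the values were seen, they included miR-207 on MDP array 6 (Ct 9.90), miR-675-5p on MDP array 15 (11.96) and miR-881 on control array 13 (7.09). None of these 3 was tested, since too few wells were measured. MiR-708 had a Ct of 22.0 on control array 7 and 22.6 on MDP array 9 against a median of 33.4 over the other wells. The rat assay of miR-190b had 19.5 on control array 4 and 18.6 on MDP array 6 against 34.5, a within-group SD of 8.17 log2 units and a log2 fold change of 0.73 relative to the 174 miRNAs.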

How the data were processed

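RNA of murine pulmonary endothelial cells was measured on 12 TLDAs, of which the 4 control and 4 MDP arrays are compared here, grouped by their labels. The authors deposited Ct values as a score in cycles, not normalized, in which 40 marks an undetermined well, and log2-scale values. The latter were each Ct less that array's average over its 4 U6 wells, as a check of the 384 wells showed (largest deviation 5.33e-15 cycles). The deposited file of the authors' own fold changes and 12 unnamed columns of single numbers were not used. The authors processed the arrays with limma and HTqPCR, per the methods.

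The sign of the deposited normalized values was turned here, undetermined wells were set missing, and miRNAs were tested with at least 2 measured values in each group (244 of 375). The fit (limma 3.58.1, R 4.3.3, lmFit and eBayes) took all 12 arrays, a mean per group and no block. An added fit took neighbouring label numbers as a block. A call needed an unadjusted p under 0.05, with Benjamini-Hochberg adjustment beside it. Single values were compared by two-sided exact permutation tests. The second reference averaged the Ct of the 174 miRNAs that none of the 12 arrays missed. On simulated data with the real spreads and missing wells (10 runs, 244 miRNAs tested), 62% of 50 miRNAs changed by 2 on the log2 scale were called, as were 4.85% of the unchanged ones. The simulated noise was drawn for each well on its own, without shifts common to an array or likeness of neighbouring arrays. These rates therefore need not hold for the real arrays.

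Families share bases 2 to 8 of the RefSeq mature sequence (225 of 335 mouse assays matched, and 8 joined by number and arm). Plain array names were assigned an arm from the older naming by hand. Clusters are miRNA genes within 10 kb of the next in RefSeq, without regard to strand (305 mouse assays placed). Named are miRNAs called with either reference, the 8 with the smallest p in each direction among those measured on all 8 arrays, miRNAs whose detection differs by 3 or more arrays, 5 miRNAs the study singles out (miR-23a and miR-203 in a figure, not in its text), reference RNAs, assays of the same gene, and examples from lists written by hand. The members and lists were chosen with earlier results of these data known. The alternatives were undetermined wells at Ct 40, a Ct limit of 35, other references, more measured values required, the 8 arrays alone, other tests and leaving out single arrays. Precision is limited by the number of arrays.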

Additional observations from a re-analysis of the deposited data

Results flagged for a closer look

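In 4 of 44 groups of 4 values examined, 1 array lay far from the other 3, where chance gives about 2.2 (1 in 20). The log2 expression relative to U6 of miR-203 was -14.5 on control array 7, of miR-467b -10.6 on control array 13 and of miR-339-3p -9.41 on control array 10, each the lowest of the control group. That of the rat assay of miR-343 was -14.2 on MDP array 9, the lowest of the MDP group. None of the 4 miRNAs was called with U6 or with the second reference, and miR-467b was called relative to the 174 miRNAs with neighbouring label numbers as a block.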

How the results depend on the processing

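Relative to U6, 3 miRNAs were called. The count was 5 with the mean of the 174 miRNAs as reference (of which 2 were among the 3), 5 with the 8 arrays alone, 1 with at least 3 measured values required in both groups, 0 with all 4 required, 1 by the methods' t-test and 0 after Benjamini-Hochberg adjustment, and 1 to 5 without single arrays. It was 5 without control array 13 or MDP array 9 and 1 without MDP array 15. Chosen after seeing the data were the median of the U6 wells as reference (6 called) and a block for arrays with neighbouring label numbers, which no label or method states (6 called, and 12 with the second reference, smallest adjusted p = 0.94 by limma). The labels give each array a number of its own, so that this block is a guess at the shared isolations and not a pairing that the labels state. Of the 3 calls relative to U6 it left 2. More than 2-fold from the control were 40 miRNAs, 95 of 375 with undetermined wells at Ct 40, 11 of the 181 measured on all 8 arrays, and 36 to 51 without single arrays. The median log2 fold change of -0.02 ranged from -0.21 to 0.23 without single arrays and was 0.22 with the median of the U6 wells. The 2.5 more miRNAs measured per MDP array became -0.92 without control array 10 and -0.58 without MDP array 6 (range -0.92 to 5.75). Without overlap between groups were 0 of 181 miRNAs with either reference, and 1 of 222 with at least 3 measured values relative to U6. Relative to the 174 miRNAs, miR-142-3p, miR-449b and miR-582-3p (log2 fold change 2.25) of the 222 had no overlap. With undetermined wells at Ct 40 the sign turned for miR-449b (0.92) and miR-741 (0.16). MiR-298 turned to 0.089 with the median of the U6 wells and ranged from -1.19 to 0.37 without single arrays, and miR-23a ranged from -1.31 to 0.22 and was -6.49 and called with undetermined wells at Ct 40. MiR-200a ranged from 0.44 to 2.97 without single arrays and was called without control array 13. The cause was not tested. Of 440 repeats of single named miRNAs under an alternative, 394 kept their direction and side of the threshold, 16 lost and 21 gained a call and 9 changed sign. Late wells limit the precision: the 95% limma interval relative to the 174 miRNAs had a median half-width of 1.85 log2 units at Ct 33 or later and of 0.90 under Ct 25.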
